A study of Mus musculus with 10 samples.

Results

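The genes described are 6 phosphodiesterases that degrade cyclic AMP (Pde4a, Pde4b, Pde4d, Pde3b, Pde7a and Pde8a) and 4 subunits of protein kinase A (Prkaca, Prkacb, Prkar1a and Prkar2b). They were taken by symbol from a table of 52171 genes, and all 10 were found. The group was chosen by its relation to Pde4d, which was itself selected on its lower level in the comparison described here, so the Pde4d values are given without a test. RNA-seq had been done on leukemia stem cells of mice whose acute myeloid leukemia was driven by the fusion oncogene MLL-AF9. They had been sorted out of bone marrow as cells lacking lineage markers and Sca-1 and carrying c-Kit, CD16/32 and CD34. The control group had the genotype Nup214fl/+, in which 1 allele of Nup214, a gene for a nuclear pore protein, is floxed, and is called floxed control (5 libraries). The other group had the genotype Nup214fl/+,Tie2-Cre and is called Nup214 heterozygous (5 libraries). Both groups carried MLL-AF9 and the floxed allele. Tie2-Cre, whose promoter drives the recombinase in the endothelium and in blood cells, was carried by the heterozygous group alone, so its effect cannot be told apart from that of Nup214 loss. The labels give neither ages nor whether each library is from its own mouse.

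Cyclic AMP is made by adenylyl cyclases when receptors coupled to the stimulatory G protein are engaged. It binds the regulatory subunits of protein kinase A and frees the catalytic subunits, which phosphorylate many proteins, among them the transcription factor CREB. Phosphodiesterases end the signal by hydrolysing the nucleotide, and in leukocytes the enzymes of the Pde4 family carry out much of this. Their inhibitors are known for damping inflammatory responses of myeloid cells.

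The labelled gate was checked first. Kit ranged from 1822 to 2820 normalized reads in controls and from 673 to 1676 in heterozygous libraries, and Cd34, Fcgr3 and Fcgr2b were detected in all 10 libraries. So was Ly6a, the Sca-1 gene that the gate selects against, at 187 to 254 and 77.8 to 198. A normalized read is a read count divided by 1 factor for its library, not by gene length. Recovered depth was 20.8 to 30.1 M reads in controls and 24.6 to 39.1 M in heterozygous libraries. Nup214 was at 906 ± 69.8 and 484 ± 83.1 normalized reads (SD, n = 5 each), with all 5 heterozygous libraries below every control. Heterozygous libraries 3, 4 and 5 stood apart from libraries 1 and 2 in markers of some other blood cells. That split was drawn from the values and not from the labels, so adjusted p-values within either set are descriptive. The summed level of 8 erythroid markers lay between 13.9 and 71.4 in controls, was 6.68 and 115 in the first pair and reached 2225 to 2740 in the other 3. The sum of 10 mature neutrophil markers was 1101776 to 1617419, then 36115 and 89099, below every control, then 1698016 to 3893151, above every control. For 8 monocyte and macrophage markers the sum was 77606 to 113827, then 62211 and 93781, then 23609 to 46149. Most of that sum was Ly6c2, at 74869 to 111112 in controls and 18429 to 88057 in heterozygous libraries, which is the marker of that list called lower. Limma called 2 of 7 tested erythroid markers, 0 of 10 neutrophil markers (3 with edgeR, 5 with DESeq2, 3 at an unadjusted p under 0.05) and 5 of 8 monocyte and macrophage markers higher, and 1 of those 8 lower. Over all tested genes it called 5.0% higher and 8.01% lower, and 7196 of 22458 had an unadjusted p under 0.05. Sums of the other lists were mostly 1 gene for B cells (Cd79b), T and NK cells (Nkg7) and endothelial and stromal cells (Pecam1). The B cell sum was 1040 to 1344 in controls and 518 to 925 in heterozygous libraries. The endothelial and stromal sum was 408 to 679, then 1313 and 1001, then 544, 585 and 1079. The T and NK sum was 26386 to 32482, then 26468 and 40823, then 5750 to 13544. That of plasmacytoid dendritic markers was 761 to 1767 and 794 to 1427. No marker of these lists was at 0 in all libraries. In bulk RNA, fewer cells of a type and less RNA per cell cannot be told apart.

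Pde4d lies on chromosome 13 of mm10 from 108449948 to 109953461 on the plus strand. GENCODE's basic set gives it 9 transcripts with 9 different starts, spread over 1273 kb, and a count per gene does not separate these forms. RefSeq's promoter table, on GRCm38.p6, held 22 windows of 250 bases before a start for 8 of the 10 genes, with 1 start for Pde4d. The first 178 bases of that Pde4d window, which end where an annotated exon begins, are shown because Pde4d is the gene the group was built around. They lie on the plus strand at chr13:108653927-108654104.
Pde4d: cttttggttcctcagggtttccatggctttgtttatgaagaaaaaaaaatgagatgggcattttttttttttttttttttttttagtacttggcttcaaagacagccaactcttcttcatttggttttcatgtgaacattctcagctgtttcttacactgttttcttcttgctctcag

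The windows were searched for the cyclic AMP response element, the palindrome TGACGTCA that CREB binds, and for its core, TGACG or CGTCA, which together cover both strands and lie inside the palindrome. The full element was found in 1 window of 1 gene, Prkar1a, and in 1.55% of all 32851 windows in the table. A core was found in 8 of the 22 windows, from 6 of the 8 genes, and in 17.8% of all windows. The Prkar1a windows that begin at 109650612 and 109650699 overlap, and 1 core is counted in both. The genes have from 1 to 6 windows each, and the share of all genes with a core was not computed. Whether these counts exceed those of other genes was not tested. Neither was found in the Pde4d window or in those of Prkar2b, which says only that these letters are not there. One site of each of 5 genes is shown in 30 bases around it, with the element or core in capitals.
Prkar1a, plus strand, chr11:109650889-109650918: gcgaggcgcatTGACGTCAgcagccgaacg
Prkacb, minus strand, chr3:146813031-146813060: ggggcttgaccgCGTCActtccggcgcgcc
Prkaca, plus strand, chr8:83972846-83972875: gtctgcaactcgCGTCActcatccaggagc
Pde4b, plus strand, chr4:102421509-102421538: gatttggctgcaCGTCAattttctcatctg
Pde8a, plus strand, chr7:81213169-81213198: gctgctttgcatTGACGccagcagccgctg

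Pde4d was lower in Nup214 heterozygous leukemia stem cells than in controls in every library, while none of the other 5 phosphodiesterases passed the test. Its levels were 1448, 2069, 903, 1404 and 1237 normalized reads in control libraries 1 to 5 and 293, 423, 204, 185 and 248 in heterozygous libraries 1 to 5. The lowest control library was thus above the highest heterozygous library. The means were 1412 ± 425 and 270 ± 94.7 (SD, n = 5 each), so that heterozygous cells held 19.1% of the control level. On the log2 scale this is a change of -2.39 (SE 0.238). It was -1.95 with heterozygous libraries 1 and 2 alone and -2.69 with libraries 3, 4 and 5 alone. Across all 20 alternatives run, scaling and leaving out libraries included, it lay between -2.69 and -1.95. The depth behind these values ran from 161 to 2239 recovered reads of Pde4d per library.

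The relative levels of the Pde4 genes differed as well. Per exon length, Pde4d made up 59.2, 69.0, 48.3, 57.7 and 57.3% of the summed level of Pde4a, Pde4b and Pde4d in control libraries 1 to 5. It made up 19.4, 27.7, 16.5, 17.3 and 22.4% in heterozygous libraries 1 to 5. These shares are ratios within a library and do not depend on how libraries were scaled. Pde4a held 36.5% ± 6.26 of the summed level of these 3 genes in controls and 71.5% ± 6.99 in heterozygous libraries, and Pde4b 5.2% ± 1.26 and 7.82% ± 3.33 (SD, n = 5 each). Pde4d thus led these 3 genes in all 5 controls, and Pde4a in all 5 heterozygous libraries. The other family member, Pde4c, is not among the 10 genes and not in the sum. Its level per kb of exon was 6.0 ± 3.95 in controls and 2.0 ± 1.77 in heterozygous libraries, and it was not called (limma adjusted p = 0.0744). With heterozygous libraries 1 and 2 alone Pde4c was lower (log2 fold change -2.38, limma adjusted p = 0.0133). It had only 3 to 43 recovered reads per library. Since Pde4d entered the group for its lower level, these shares are given as a description.

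**Figure D1:**
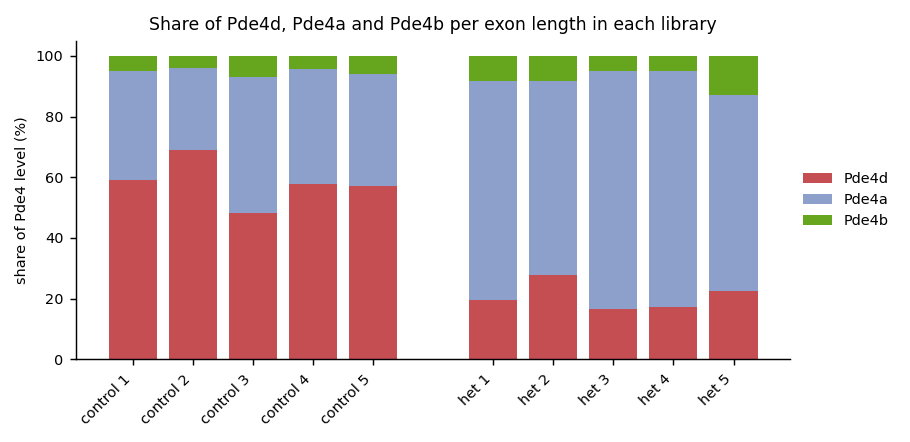
Share of Pde4d, Pde4a and Pde4b in their summed level (percent, normalized reads per exon length) in each of the 10 libraries. Pde4d takes 48.3 to 69.0% in the 5 controls and 16.5 to 27.7% in the 5 heterozygous (het) libraries.

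Pde4a, which encodes another cyclic AMP-specific enzyme of the family, read 736, 683, 700, 774 and 668 normalized reads in the controls and 918, 819, 816, 697 and 601 in the heterozygous libraries. The groups overlapped, and the change on the log2 scale was 0.10 (SE 0.124, limma adjusted p = 0.607). Pde4b, the family member known for its role in the inflammatory response of monocytes in mice, read 131 to 161 in controls. It read 153, 156 and 175 in heterozygous libraries 1, 2 and 5 but 72.2 and 63.6 in libraries 3 and 4. Its log2 fold change was -0.36 (SE 0.270, limma adjusted p = 0.373), and 0.07 with heterozygous libraries 1 and 2 alone (limma adjusted p = 0.799). The erythroid and neutrophil marker sums were high in library 5 as well as in libraries 3 and 4, and their part in the Pde4b values was not tested.

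Pde3b encodes a phosphodiesterase that is inhibited by cyclic GMP and is known from fat cells for its part in the response to insulin. It read 123, 199, 79.7, 148 and 162 normalized reads in the 5 controls and 79.2, 58.0, 181, 165 and 134 in the 5 heterozygous libraries. The groups overlapped over all 10 libraries (log2 fold change -0.27, SE 0.322, limma adjusted p = 0.592). With heterozygous libraries 1 and 2 alone it was lower, with a log2 fold change of -1.0 (limma adjusted p = 0.0320), and with libraries 3, 4 and 5 alone the log2 fold change was 0.22 (limma adjusted p = 0.559). Whether the log2 fold changes of these sets of libraries differ was not tested.

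Pde7a and Pde8a encode cyclic AMP-specific enzymes that the Pde4 inhibitor rolipram does not block. Pde7a ranged from 47.2 to 73.9 normalized reads in controls and from 30.2 to 58.2 in heterozygous libraries, with a log2 fold change of -0.38 (SE 0.233, limma adjusted p = 0.271). Pde8a ranged from 254 to 493 and from 304 to 528, with a log2 fold change of 0.10 (SE 0.200, limma adjusted p = 0.754). Both genes overlapped between the groups. An antisense gene, Gm16093, shares 48 exon bases with Pde7a and was at 0 in all libraries.

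Among the subunits of protein kinase A, Prkar1a was higher in heterozygous cells and the other 3 did not pass the test. Prkar1a encodes the type I alpha regulatory subunit, which holds the catalytic subunits inactive until cyclic AMP binds. It read 6184, 6795, 5833, 6573 and 6132 normalized reads in the 5 controls and 8501, 9078, 7273, 8319 and 10020 in the 5 heterozygous libraries. All 5 heterozygous libraries were above every control. The means were 6303 ± 381 and 8638 ± 1011 (SD, n = 5 each), which is 1.37 times the control level. The change on the log2 scale was 0.45 (SE 0.111, limma adjusted p = 0.0231). The call was lost after quantile normalization (log2 fold change 0.21, adjusted p = 0.248) and, in limma, without control library 1, 3 or 5 (adjusted p = 0.0585, 0.0506 and 0.0567). It was also lost with the replicate number as a block (limma adjusted p = 0.0519). On the log2 scale the change was 0.48 with heterozygous libraries 1 and 2 alone (limma adjusted p = 0.00942) and 0.43 with libraries 3, 4 and 5 alone (0.0272).

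Prkar2b, which encodes the type II beta regulatory subunit, varied widely within both groups. It read 479, 633, 1028, 1114 and 1136 normalized reads in the 5 controls and 970, 928, 1013, 1097 and 311 in the 5 heterozygous libraries. Control libraries 1 and 2 and heterozygous library 5 were low, and the change on the log2 scale was -0.07 (SE 0.336, limma adjusted p = 0.907). Without heterozygous library 5 it was 0.27 (limma adjusted p = 0.474). Per exon length, Prkar2b made up 13.4% ± 4.32 of the summed level of Prkar1a and Prkar2b in controls against 10.2% ± 4.05 in heterozygous libraries (SD, n = 5 each). That difference of -3.13 percentage points had p = 0.270 when all 252 assignments were enumerated (exact permutation, two-sided).

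The catalytic subunit genes were led by Prkacb. It read 2445 to 2676 normalized reads in the 5 controls and 1774, 2618, 3331, 3180 and 2752 in heterozygous libraries 1 to 5, so that the heterozygous group spread to both sides of the controls. Its log2 fold change was 0.06 (SE 0.151, limma adjusted p = 0.820). Prkaca ranged from 159 to 220 in controls and from 143 to 184 in heterozygous libraries, with a log2 fold change of -0.21 (SE 0.146, limma adjusted p = 0.347). A processed copy, Prkaca-ps1, was at 0 in 9 of the 10 libraries. Per exon length, Prkacb was 86.7% ± 1.92 of the catalytic level in controls against 88.4% ± 3.70 in heterozygous libraries (SD, n = 5 each). The exact permutation test, two-sided, gave p = 0.397. Adjusted over both shares, p was 0.397 for each. Without heterozygous library 1, in which Prkacb was at its lowest, the difference was 3.28 percentage points and the exact permutation p was 0.0397. Of 14 alternatives for this share it was the only 1 with p under 0.05, and that p was not adjusted.

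In all, of the 9 genes other than Pde4d, limma called 1 higher and 0 lower at an adjusted p under 0.05, and 1 had an unadjusted p under 0.05. The edgeR and DESeq2 tests on recovered reads also gave 1 and 0. Over all 22458 genes tested by limma, 13.0% were called, 5.0% higher and 8.01% lower, and 7196 had an unadjusted p under 0.05. The edgeR test called 13.7% of its genes, 7.63% higher and 6.10% lower, and DESeq2 called 16.4%, 7.60% higher and 8.81% lower. Of the 9 genes, 1 had all 5 heterozygous libraries above every control and 0 had all 5 below, against 4.64% and 6.67% of all tested genes, or 11.3% for both. All 10 genes passed the filter on low values, which asked for at least 1 normalized read in 5 libraries.

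**Figure D2:**
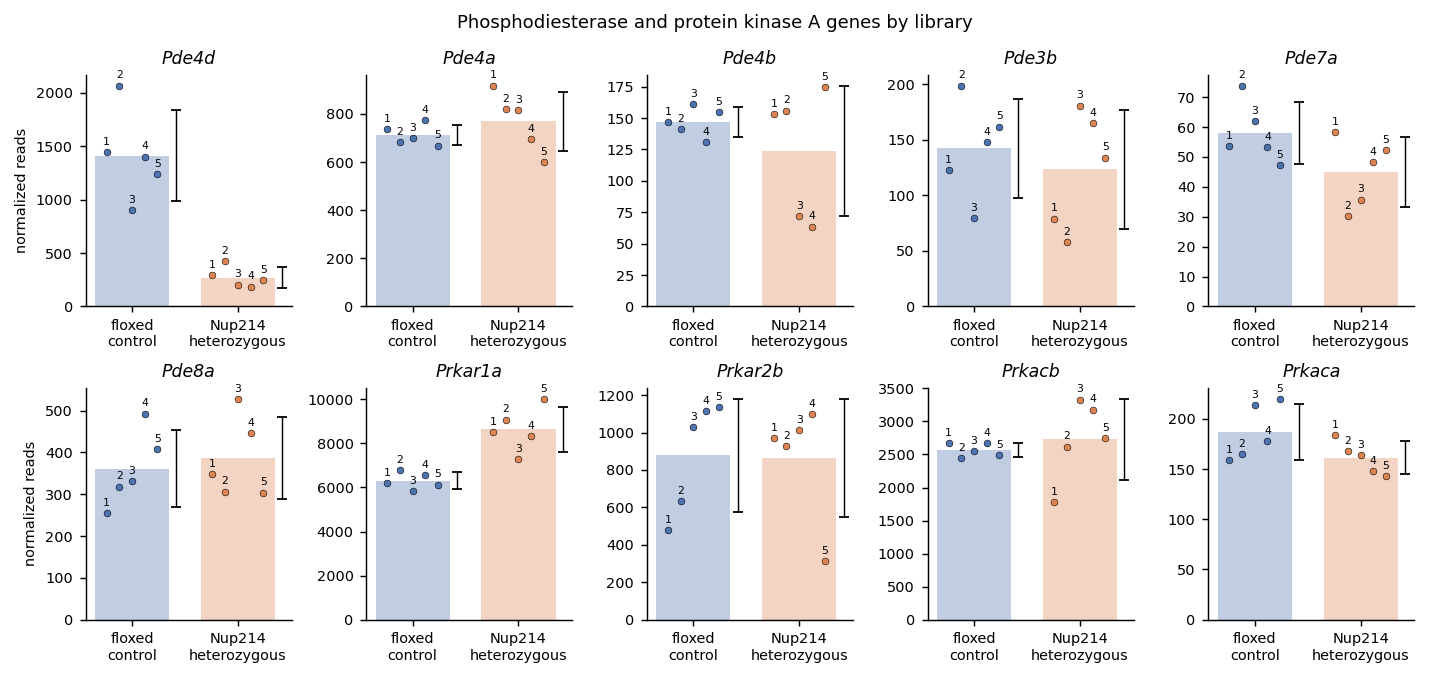
Normalized reads of the 10 genes in each library, numbered by library, with the mean (bar) and SD (line) of the 5 floxed control and 5 Nup214 heterozygous libraries. Pde4d and Prkar1a are the genes whose groups do not overlap, with Pde4d lower (185 to 423 against 903 to 2069) and Prkar1a higher (7273 to 10020 against 5833 to 6795) in heterozygous libraries.

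Levels of different genes can be compared only per length, and are given as normalized reads per kb of exon. In controls the order was Prkar1a at 1549 ± 93.6, Prkacb at 492 ± 19.8, Prkar2b at 240 ± 82.6, Pde4d at 213 ± 64.0 and Pde4a at 128 ± 7.71 (SD, n = 5 each). It went on with Pde8a at 94.9 ± 24.1, Prkaca at 75.3 ± 11.3, Pde3b at 21.7 ± 6.77, Pde4b at 18.0 ± 1.41 and Pde7a at 8.93 ± 1.60. Prkar2b and Pde4d, Pde8a and Prkaca, and Pde3b and Pde4b were neighbors in that order whose ranges of mean ± SD overlapped. In heterozygous libraries Pde4d was at 40.7 ± 14.3 and took the 7th place, after Prkaca at 64.9 ± 6.65, while the other 9 genes kept their order. Outside the 10 genes, Pde2a, whose enzyme degrades cyclic AMP and cyclic GMP, had levels per kb of 724 ± 123 in controls and 712 ± 282 in heterozygous libraries. It shares 3893 exon bases with the annotated gene Gm45837 on the same strand, so its level is uncertain. It was not called over all libraries and was lower with heterozygous libraries 1 and 2 alone (log2 fold change -0.67, limma adjusted p = 0.0142).

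**Figure D3:**
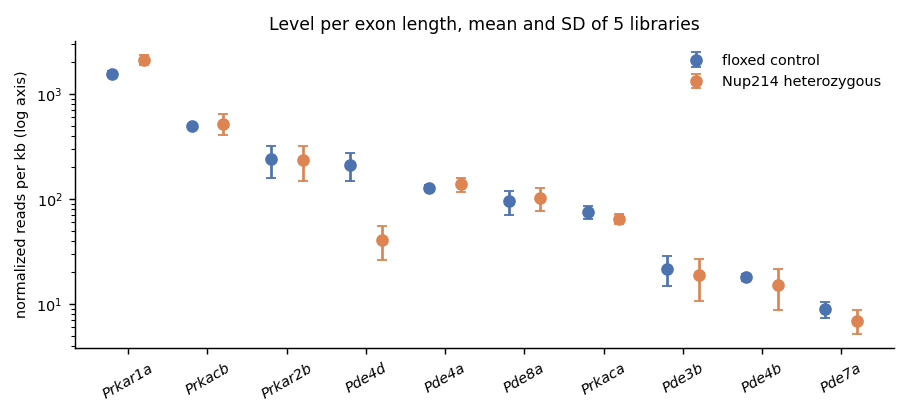
Normalized reads per kb of exon (log axis) for the 10 genes, as mean and SD of 5 libraries per group, ordered by the control mean. Pde4d moves from 213 in floxed controls to 40.7 in Nup214 heterozygous libraries, and no other gene's points separate as far.

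Genes whose log2 levels followed Pde4d were ranked by Pearson's r over the 10 libraries, among 8538 genes with a mean of at least 100 normalized reads. These r values describe points that share libraries, depth and group, and carry no test. The most alike were Apmap (r = 0.980), Nme6 (0.970), Rps6ka2 (0.969), Strbp (0.969) and Slc31a1 (0.968). Apmap, for example, had a control mean of 1947 ± 288 normalized reads and a heterozygous mean of 1014 ± 195 (SD, n = 5 each). The most opposite were Selenow (r = -0.984), Tor3a (-0.974), Lgals3bp (-0.972), Sertad2 (-0.971) and Tmem108 (-0.969).

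When each group's mean was subtracted, so that only the variation among libraries of a group remained, the genes most like Pde4d were Srcap (r = 0.974), Arhgef3 (0.964), Rad54l2 (0.962), Dtx4 (0.961) and Slc30a9 (0.958), over the same 10 libraries. The most opposite by this measure were Tnfsf13os (r = -0.925), Jup (-0.919), Cap1 (-0.906), Msrb1 (-0.892) and Ccdc12 (-0.886). Among the other 9 cyclic AMP genes r with Pde4d ran from -0.454 for Pde8a to 0.577 for Prkar1a by this measure, and from -0.747 for Prkar1a to 0.502 for Pde4b before the means were subtracted.

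The rest of the pathway was followed in 9 lists with 104 genes in the table, of which 89 passed the filter on low values. Limma called 5 of them higher and 11 lower in heterozygous cells, 18.0% in all, where 13.0% of all tested genes were called (5.0% higher and 8.01% lower). The lists had a median log2 fold change of -0.06 against -0.19 over all tested genes. Quantile normalization moved the median of all genes to -0.02. After it, 6 pathway genes were higher and 3 lower, against 780 and 517 of all 22458 tested genes. Calls were found among the cyclases, G proteins, receptors, phosphodiesterases, other kinase subunits and response genes, and none among the anchoring proteins, CREB factors and Epac genes.

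**Figure D4:**
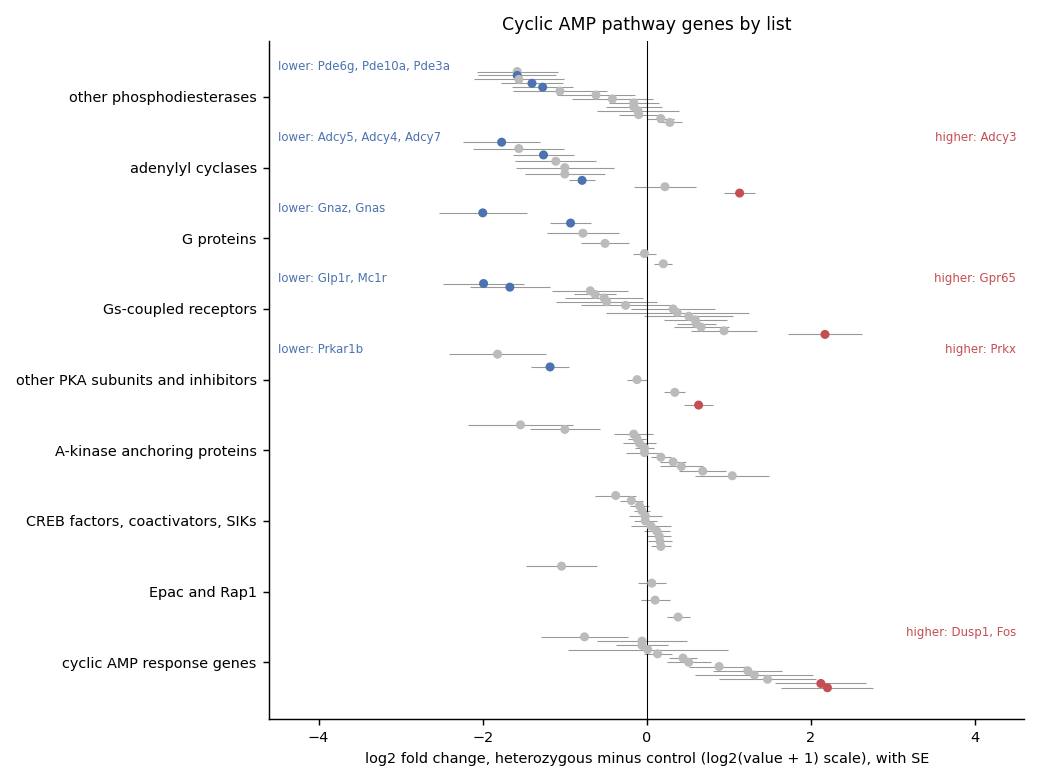
Log2 fold change of each tested pathway gene, heterozygous minus control on the log2(value + 1) scale, with its SE, by list. Blue points were called lower (11 genes) and red points higher (5 genes) by limma at an adjusted p under 0.05, grey points were not called, and SIKs are salt-inducible kinases.

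Adenylyl cyclases counted 1 higher and 3 lower of 9 tested, where limma called 5.0% of all tested genes higher and 8.01% lower. Their median log2 fold change was -1.0, against -0.19 over all tested genes. The tested cyclases other than Adcy3 and Adcy7 were low, with control means from 2.84 to 24 normalized reads. Among all tested genes with a control mean under 30, 11.2% were called lower and 1.33% higher. The edgeR test called 1 higher and 1 lower of 3 tested, and DESeq2 1 and 1 of 10. Over all their genes they called 13.7% and 16.4%. Adcy7, an isoform known from blood cells and the cyclase with the most reads here, read 1103, 1086, 1278, 973 and 1099 normalized reads in the 5 controls and 452, 543, 869, 707 and 689 in the 5 heterozygous libraries. All 5 heterozygous libraries were below every control, and the log2 fold change was -0.79 (SE 0.160, limma adjusted p = 0.00963). Adcy3, best known for odor signaling in the nose, read 72.1 to 117 in controls, against 229, 234, 237, 153 and 224 in heterozygous libraries, all above every control. Its log2 fold change was 1.13 (SE 0.185, limma adjusted p = 0.00348). Adcy3 shares 1221 exon bases with Cenpo on the opposite strand, which averaged 486 ± 20.5 and 590 ± 75.6, and the strand of the reads is not stated. Both calls were kept in all 20 alternatives. Per kb of exon, Adcy7 went from 178 ± 17.6 to 105 ± 25.8 and Adcy3 from 19.6 ± 3.98 to 42.8 ± 7.0 (SD, n = 5 each), so that Adcy7 stayed above Adcy3 in both groups.

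G protein alpha subunits counted 0 higher and 2 lower of 6 tested, where limma called 5.0% of all tested genes higher and 8.01% lower. Gnas, which encodes the stimulatory subunit, read 2907, 3181, 5462, 4286 and 3964 normalized reads in controls. In heterozygous libraries 1 and 2 it read 3398 and 2826, within or just under the control range, and in libraries 3, 4 and 5 it read 1571, 1671 and 1356. The log2 fold change was -0.93 (SE 0.249, limma adjusted p = 0.0295), and with heterozygous libraries 1 and 2 alone it was -0.32 (adjusted p = 0.273). The low libraries are those with high erythroid and neutrophil marker sums, whose part in this result was not tested. The Gnas call was also lost without heterozygous library 3, 4 or 5 (limma adjusted p = 0.0568, 0.0609 and 0.0642) and without control library 3, 4 or 5 (0.0654, 0.0577 and 0.0643). The inhibitory subunit genes Gnai2 and Gnai3 had log2 fold changes of -0.03 and 0.20 and were not called.

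Receptors coupled to the stimulatory G protein counted 1 higher and 2 lower of 15 tested, against 5.0% and 8.01% of all tested genes. Gpr65, which senses extracellular acid, read 9.37 to 46.2 normalized reads in the 5 controls and 178, 53.9, 182, 151 and 198 in the 5 heterozygous libraries, all above every control. Its log2 fold change was 2.17 (SE 0.446, limma adjusted p = 0.0106), and it was called in 19 of 20 alternatives, the exception being heterozygous libraries 1 and 2 alone (adjusted p = 0.0542). The prostaglandin E receptor genes Ptger2 and Ptger4 had log2 fold changes of 0.60 and 0.59 and were not called. Taking only heterozygous libraries 3, 4 and 5, limma called 6 receptor genes higher, Ptger2 and Ptger4 among them, and 2 lower, against 9.33% and 12.1% of all tested genes. Taking only libraries 1 and 2, it called none in either direction, against 7.44% of all tested genes higher and 8.22% lower.

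Of 5 other subunits and inhibitors of protein kinase A, limma called 1 higher and 1 lower, against 5.0% and 8.01% of all tested genes. Prkar1b, the type I beta regulatory subunit known mainly from the nervous system, read 112, 95.2, 112, 147 and 85.1 normalized reads in the 5 controls and 42.9, 42.5, 67.5, 59.3 and 32.3 in the 5 heterozygous libraries. The groups did not overlap, the log2 fold change was -1.18 (SE 0.232, limma adjusted p = 0.00843), and the call was kept in all 20 alternatives. Per kb of exon its control level was 38.1 ± 8.16, against 1549 ± 93.6 for Prkar1a. Prkx, which encodes a catalytic subunit relative on the X chromosome, averaged 121 ± 19.8 and 188 ± 35.9 (log2 fold change 0.63, limma adjusted p = 0.0321). The Prkx call was lost without control library 2, 3, 4 or 5 (limma adjusted p = 0.0642, 0.0687, 0.0593 and 0.0603), without heterozygous library 3 or 5 (0.0615 and 0.0695) and with heterozygous libraries 1 and 2 alone (0.185). Pkib, which encodes a protein inhibitor of the kinase, read 202 to 321 in controls. Heterozygous libraries 1 and 2 were at 177 and 281, while libraries 3, 4 and 5 were at 14.3, 46.4 and 61.5. It was not called over all 10 libraries (log2 fold change -1.82, limma adjusted p = 0.0581) and was lower with heterozygous libraries 3, 4 and 5 alone (-2.88, adjusted p = 0.000141).

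Of 14 other tested genes named for phosphodiesterases, limma called 0 higher and 3 lower, against 5.0% and 8.01% of all tested genes. Not every gene of that list encodes an enzyme for cyclic AMP. Those called lower were Pde10a, Pde6g and Pde3a. These 3, the cyclases Adcy4 and Adcy5, the G protein gene Gnaz and the receptor genes Glp1r and Mc1r were all low in these cells, with control means from 5.43 to 26.0 normalized reads. Pde10a averaged 16.6 ± 3.05 and 6.25 ± 3.4 (log2 fold change -1.40, limma adjusted p = 0.0313), and Glp1r 5.74 ± 2.47 and 0.898 ± 1.25 (-1.99, adjusted p = 0.0239), with SD and n = 5 each. Among all 11393 tested genes with a control mean under 30, 11.2% were called lower and 1.33% higher, and in the pathway lists 8 of 37 such genes were lower and 0 higher. Among the 11065 genes at 30 or more, 4.71% were lower and 8.77% higher, against 3 and 5 of 52 in the pathway lists. Each of the 8 low genes lost its call in at least 3 of the 10 fits that left out 1 library. For Glp1r these were control libraries 1 and 5 and heterozygous library 5 (limma adjusted p = 0.0595, 0.0590 and 0.0508), and for Pde10a control libraries 1, 2, 3 and 5 and heterozygous libraries 2 and 5 (0.0689, 0.0528, 0.0610, 0.0738, 0.0566 and 0.0501). The others kept their call in few of these 10 fits, namely 4 for Adcy5, 3 each for Pde6g, Adcy4 and Gnaz, 2 for Pde3a and 1 for Mc1r, with limma adjusted p up to 0.113 for Pde6g without control library 1 and 0.105 for Pde3a without the same library.

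None of 11 genes for CREB factors, coactivators and salt-inducible kinases was called by limma, edgeR or DESeq2, and none had an unadjusted p under 0.05. Over all tested genes limma called 13.0%, and 7196 of 22458 had an unadjusted p under 0.05. Creb1 averaged 786 ± 126 and 802 ± 262 normalized reads. With heterozygous libraries 1 and 2 alone, Creb1 was lower (log2 fold change -0.49, limma adjusted p = 0.0385) and Atf1, a relative of Creb1, higher (0.39, adjusted p = 0.0360). Sik1, the gene with the smallest p in the list, averaged 82.1 ± 17.1 and 64.6 ± 22.1 (SD, n = 5 each; limma adjusted p = 0.309). Of 12 anchoring protein genes none was called by any of the 3 tools and 4 had an unadjusted p under 0.05, with Akap6 first at 13.0 ± 8.79 and 4.56 ± 3.74 (limma adjusted p = 0.116). With heterozygous libraries 3, 4 and 5 alone, Akap13 was higher (log2 fold change 0.56, limma adjusted p = 0.00478) and Akap6 lower (-2.11, adjusted p = 0.0446). With libraries 1 and 2 alone, Akap12 was higher (1.69, adjusted p = 0.0497) and Akap11 lower (-0.73, adjusted p = 0.0179). Of the 4 genes for the exchange factors Epac and their target Rap1, none was called and 2 had an unadjusted p under 0.05. Among them Rapgef3, which encodes Epac1, averaged 398 ± 61.7 and 519 ± 78.1 (limma adjusted p = 0.0878). It was called without control library 4 (limma adjusted p = 0.0497) and with heterozygous libraries 1 and 2 alone (0.0216).

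Genes induced through CREB in many cell types counted 2 higher and 0 lower of 13 tested, with a median log2 fold change of 0.51. The counts were 3 and 0 of 11 with edgeR and 6 and 0 of 14 with DESeq2. Over all genes tested, limma called 5.0% higher, edgeR 7.63% and DESeq2 7.60%, and 8.01%, 6.10% and 8.81% lower. Fos, an immediate early transcription factor gene, read 780, 532, 232, 721 and 1282 normalized reads in the 5 controls and 1398, 998, 7656, 2514 and 6911 in the 5 heterozygous libraries. Heterozygous library 2 lay within the control range, and the log2 fold change was 2.20 (SE 0.560, limma adjusted p = 0.0254). Dusp1, which encodes a phosphatase of MAP kinases, read 187 to 1005 in controls, against 999, 797, 3726, 1139 and 6478 in heterozygous libraries (log2 fold change 2.12, SE 0.555, limma adjusted p = 0.0275).

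With heterozygous libraries 3, 4 and 5 alone, 8 of the 13 response genes were higher and 0 lower, where 9.33% of all tested genes were higher and 12.1% lower. Taking libraries 1 and 2 alone, Rgs2 was higher (log2 fold change 0.73, limma adjusted p = 0.000797) and Nr4a1 lower (-2.71, adjusted p = 0.00342). Nr4a1 was higher with libraries 3, 4 and 5 alone (1.81, adjusted p = 0.0289). Fos had an adjusted p of 0.144 in limma with libraries 1 and 2 alone, and Dusp1 one of 0.0884. The Fos call also ended on leaving out control library 1, 2 or 3 or heterozygous library 5 (limma adjusted p = 0.0528, 0.0524, 0.0538 and 0.0539), and the Dusp1 call on leaving out control library 1, 2, 3 or heterozygous library 3 (0.0675, 0.0543, 0.0607 and 0.0537). The part of the erythroid and neutrophil markers in these values was not tested, and neither was that of cyclic AMP or CREB.

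**Figure D5:**
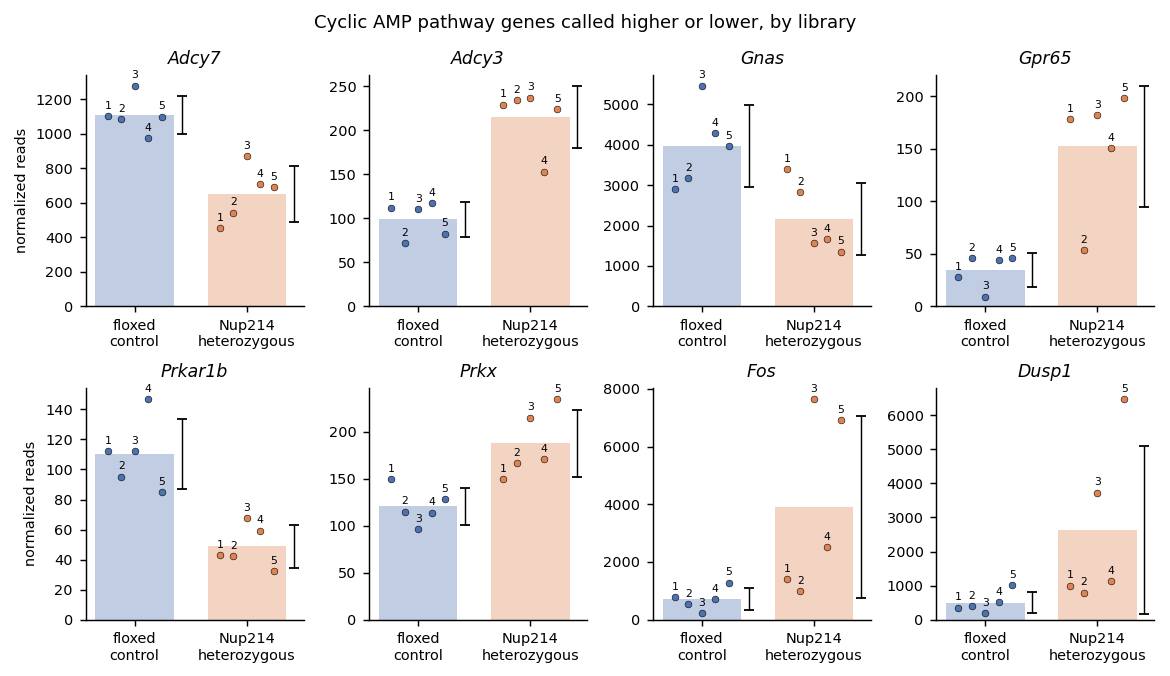
Normalized reads of 8 called pathway genes in each library, numbered by library, with mean (bar) and SD (line, n = 5). Adcy7 and Prkar1b are lower and Adcy3 and Gpr65 higher in all 5 heterozygous libraries than in every floxed control, whereas Gnas, Fos and Dusp1 overlap between the groups and split heterozygous libraries 1 and 2 from library 5.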

How the data were processed

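RNA was amplified by Geo-seq, a method for few cells, and made into TruePrep libraries, per the labels' protocols. The submitters' processing notes name mm10, HTSeq, DESeq2, Cufflinks 2.1.1 and Bowtie 0.12.9 without their roles. Annotation and strand were not stated there. In each library the authors' deposited signal equals whole reads times a single step. Dividing by each library's step gave whole reads within 0.01 for at least 99.996% of values. No molecular identifiers are described, so depth covers counting error only.

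The test was limma-trend (limma 3.58.1, R 4.3.3) on log2(value + 1), group as the only term, for 22458 genes with at least 1 normalized read in 5 libraries, with Benjamini-Hochberg adjustment over all of them. This scale understates changes of low genes. Calls required an adjusted p under 0.05. It was tested on simulated data. P-values measure the spread between these libraries, which may be technical. Alternatives were edgeR 4.0.16, DESeq2 1.42.0, other scaling, filters and pseudocounts, a replicate block and leaving out libraries. Exon lengths and overlaps came from GENCODE's mm10 set. Akap2 was not found in the table by symbol. No library repeated another of its group (smallest chi-square per degree of freedom 15.5).

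The genes and lists were chosen with earlier results of these data known. Named genes were the 10 genes, Nup214, up to 4 called genes of each pathway list with the smallest p (or the 1 with the smallest p), and those most and least like Pde4d. Other genes named (Pde2a, Pde4c, Akap11, Akap12, Akap13, Atf1, Ly6c2, Cd79b, Nkg7, Pecam1, Pkib, Cenpo, Gnai2, Gnai3, Ptger2, Ptger4, Creb1, Rgs2 and Nr4a1) were chosen after their values were seen.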

Additional observations from a re-analysis of the deposited data

Results flagged for a closer look

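In 4 of the 64 groups of 5 libraries examined, 1 library lay far from the rest, by a gap of more than 0.71 of the group's range. Chance gives this in about 1 group in 20. Prkar2b read 311 normalized reads in heterozygous library 5 and 928 to 1097 in the other 4. Adcy3 read 153 in heterozygous library 4 and 224 to 237 in the others, still above every control. Pde3a read 7.69 in heterozygous library 5 and 2.58 to 3.97 in the others. Rapgef3 read 507 in control library 4 and 357 to 381 in the other controls.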

How the results depend on the processing

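Pde4d kept its direction under all 20 alternatives, and Nup214 its direction and call. The count of 1 higher among the 9 other genes became 0 after quantile normalization and with a replicate block, and 0 to 1 when 1 library was left out. The count lower became 1 (Pde3b) with heterozygous libraries 1 and 2 alone. The 5 pathway genes higher became 9 with DESeq2, 17 without heterozygous libraries 1 and 2, and 2 to 8 when 1 library was left out. The 11 lower became 5 with edgeR, 5 without a filter, 6 with a pseudocount of 0.1, 3 after quantile normalization, 5 with a replicate block, 7 with a filter of 5 reads in 5 libraries, and 3 to 14 when 1 library was left out. Over all genes, 1122 higher became 703 with the block, 2095 without heterozygous libraries 1 and 2, and 559 to 1313 when 1 library was left out. The 1798 lower became 808 with edgeR, 1119 without a filter, 1028 with the smaller pseudocount, 517 after quantile normalization, 945 with the block, 1063 with the stricter filter, 2707 without heterozygous libraries 1 and 2, and 599 to 2250 when 1 library was left out. Higher genes made up 38.4% of all calls without rescaling, 60.1% with quantile normalization and 47.2% with TMM scaling. These counts come from unlike sets of genes. The edgeR test covered 68 pathway genes and 13242 genes in all, DESeq2 101 and 21268, and limma as fitted 89 and 22458. The settings without a filter or with a stricter one also changed which genes were tested. The cause of these changes was not tested. The replicate numbers did not pair the libraries: deviations of same-numbered libraries correlated from -0.0905 to 0.0817, and no library correlated best with its own number.

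Changes of sign were seen only for genes and shares not called as fitted. Without heterozygous libraries 3, 4 and 5, the Prkacb share difference was -1.61 percentage points, and log2 fold changes were 0.07 for Pde4b, -0.11 for Pde8a, -0.25 for Prkacb and 0.19 for Prkar2b. Without libraries 1 and 2 they were -0.02 for Pde4a and 0.22 for Pde3b. Pde8a was at -0.02 without heterozygous library 3 or control library 1. Prkacb was at -0.12 after quantile normalization, and at -0.02 and -0.01 without heterozygous library 3 or 4, with a highest value of 0.20 when 1 library was left out. Prkar2b was at 0.27 without heterozygous library 5, and at 0.01, 0.04 and 0.04 without control library 3, 4 or 5, with a lowest value of -0.27. The Prkacb share difference was 1.03 to 3.28 percentage points when 1 library was left out.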
